A study of Mus musculus with 6 samples.

Results

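The CDK inhibitor genes were taken by name: *Cdkn1a*, *Cdkn1b*, *Cdkn2a*, *Cdkn2b*, *Cdkn2c* and *Cdkn2d*, 6 of the 32285 genes of the matrices. Their unique molecular identifiers (UMIs, each marking 1 captured RNA molecule) were counted in 4 single-cell RNA-seq libraries of CD8+ Tomato+ T cells, from B16-OVA melanomas and from tumor-draining LN. Both tissues came from CD8-IFNγRKO mice (CD8-Cre Rosa26Tomato IFNgR1flox/flox), whose CD8 T cells were made to lose the IFNγ receptor chain, and from control mice (CD8-Cre Rosa26Tomato), which carried the same Cre and reporter and differed in lacking the floxed alleles. Tissue was taken on day 12, and the cells of 3 mice were pooled into 1 library for each tissue and genotype, so that mice could not be told apart and no difference had a replicate check. TCR sequences of the 2 tumor libraries, joined to the RNA libraries of the same tissue and genotype by cell barcode, gave a clone for 68.8% of CD8-IFNγRKO and 60.3% of control tumor cells. The Cre is driven by CD8α sequences, so cells that never switched it on would not carry the reporter.

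Cyclin-dependent kinases (CDKs) drive cells through the cycle, and 2 families of small proteins hold them back. The CIP/KIP family, p21 (*Cdkn1a*) and p27 (*Cdkn1b*), binds complexes of cyclin and CDK, with p21 best known as a target of p53 and p27 as a marker of resting lymphocytes. The INK4 family, p16 (*Cdkn2a*), p15 (*Cdkn2b*), p18 (*Cdkn2c*) and p19 (*Cdkn2d*), binds CDK4 and CDK6 alone and keeps them from D cyclins. *Cdkn2a* also encodes p19ARF, an inhibitor of Mdm2, from another first exon, and counts per gene do not separate the 2 products.

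After filtering, 6641 to 8634 cells per library were kept, with a median of 3863 to 9399.5 UMIs per cell and 28841136 to 93969472 UMIs in all. All 6 CD8 T cell markers were present in each library, summing to 5187 to 8490 CPM, the UMIs of a group of cells scaled to a common total. Markers of other cells were low: the 6 melanoma markers summed to 2.54 to 3.92 CPM, and *Cd4* with *Foxp3* to 4.91 to 19.7. The fibroblast and endothelial list reached 49.8 CPM in LN, nearly all of it *Pecam1*. Barcodes also found in another library made up 4.32% to 5.17% of the cells. *Ifngr1* stood at 237 CPM in the CD8-IFNγRKO tumor against 718 in the control tumor, and at 137 against 182 CPM in LN. Counts per gene do not show whether the deleted exon was present. Intervals are exact 95% intervals and cover counting error only, not the spread between mice. A gene was taken as past 1.5-fold where its ratio was at least that large, its interval excluded no change and both groups held 20 or more UMIs in sum.

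The results turn on *Cdkn1a*, which led in tumors, and on *Cdkn2a*, which differed most between tumor genotypes after *Cdkn2b*. Both genes have 2 RefSeq start sites, so the 250 bases before each start are shown (build GRCm38.p6, the build of mm10, each 5′ to 3′ on the strand of its gene). In these windows capitals mark a p53 response element, the GC box GGGCGG or the E2F motif TTTCCCGC, found on either strand. The window before the p16 start held none of them.
Cdkn1a, upstream start, chr17:29090729-29090978, plus strand: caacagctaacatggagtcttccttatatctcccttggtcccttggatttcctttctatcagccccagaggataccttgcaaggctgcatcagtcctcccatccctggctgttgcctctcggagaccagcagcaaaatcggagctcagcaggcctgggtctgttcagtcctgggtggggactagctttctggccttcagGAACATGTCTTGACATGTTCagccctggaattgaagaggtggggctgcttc
Cdkn1a, downstream start, chr17:29093519-29093768, plus strand: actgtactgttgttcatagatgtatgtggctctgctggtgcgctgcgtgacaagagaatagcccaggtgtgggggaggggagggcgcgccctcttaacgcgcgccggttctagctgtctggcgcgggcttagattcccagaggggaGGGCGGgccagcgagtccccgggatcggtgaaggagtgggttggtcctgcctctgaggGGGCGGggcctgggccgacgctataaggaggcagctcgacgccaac
Cdkn2a, upstream start (p19ARF), chr4:89294620-89294869, minus strand: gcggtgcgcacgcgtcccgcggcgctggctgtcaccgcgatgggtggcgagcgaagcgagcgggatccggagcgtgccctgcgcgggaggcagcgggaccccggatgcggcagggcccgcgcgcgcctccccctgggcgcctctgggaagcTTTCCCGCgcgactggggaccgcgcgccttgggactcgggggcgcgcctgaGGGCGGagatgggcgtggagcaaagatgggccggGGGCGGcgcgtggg
Cdkn2a, downstream start (p16), chr4:89282193-89282442, minus strand: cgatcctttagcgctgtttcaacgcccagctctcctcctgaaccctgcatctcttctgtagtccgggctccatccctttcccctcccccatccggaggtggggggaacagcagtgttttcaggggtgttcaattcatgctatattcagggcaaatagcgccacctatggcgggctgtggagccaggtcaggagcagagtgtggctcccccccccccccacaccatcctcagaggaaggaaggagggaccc

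The p53 response element was searched as 2 adjacent half-sites with at most 1 mismatch and none at the C and G of each core. It lay 51 to 32 bases before the upstream *Cdkn1a* start and was found in 22 of 32851 RefSeq windows of 300 bases, 0.0670%. The GC box was common, in 35.7% of those windows and in 32.7% of their 250 upstream bases. It lay before a start of *Cdkn1a*, *Cdkn1b*, *Cdkn2a*, *Cdkn2c* and *Cdkn2d*, and just after the start of *Cdkn2b*. The E2F motif TTTCCCGC was in 1.07% of windows and, among the members, before the p19ARF start. The STAT motif TTCNNNGAA, in 8.30% of all windows, was in none of the 9 windows of the members, as were the E2F forms TTTGGCGC and TTTCGCGC (0.514% and 0.323% of windows). The motif TTTGAA, in 17.9% of windows, was found before the start of *Cdkn2b*. A match is a description of letters, and no binding was measured here.

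The genes lie on 4 chromosomes. *Cdkn2a* (chr4:89274473-89294619) and *Cdkn2b* (chr4:89306289-89311032) are neighbours on the same strand with 11670 bases between them, and *Cdkn2c* (chr4:109660876-109666756) lies farther along the same chromosome. *Cdkn2d* is at chr9:21288459-21291421, *Cdkn1b* at chr6:134920401-134925525 and *Cdkn1a* at chr17:29090979-29100722. The non-coding gene *Gm12610* overlaps *Cdkn2b* on the opposite strand and was at 0.032 CPM or less in both tumor libraries.

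Tumor and LN cells differed in which inhibitors led. In CD8-IFNγRKO and control LN, *Cdkn1b* made up 68.3% and 65.6% of the UMIs of the 6 genes and *Cdkn2d* 29.1% and 31.5%, whereas in tumors *Cdkn1a* was the leading gene at 33.1% and 31.0%, with *Cdkn1b* at 26.0% and 27.6% and *Cdkn2d* at 26.6% and 21.1%. *Cdkn1a* stood at 93.1 CPM in the CD8-IFNγRKO tumor and 96.0 in the control tumor, and at 2.22 and 2.34 CPM in LN. Both tumors were thus far above both LN, by a log2 ratio of 5.39 (5.04 to 5.77) in CD8-IFNγRKO mice and 5.36 (5.02 to 5.72) in controls.

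*Cdkn1b* went the other way, at 73.0 CPM in the CD8-IFNγRKO tumor, 85.4 in the control tumor, 149.9 in CD8-IFNγRKO LN and 138.6 in control LN. Both tumors were below both LN, with log2 ratios of −1.04 (−1.09 to −0.98) and −0.70 (−0.76 to −0.64) for tumor over LN. Tumor cells had more UMIs, a median of 9399.5 and 6306 against 3863 and 4051 in LN. Whether RNA content or library depth set these counts was not tested. Per 100 cells *Cdkn1b* had 79.5 and 71.5 UMIs in tumors against 64.2 and 62.5 in LN. Its lower level in tumors is relative to all UMIs of the cells and turned to log2 ratios of 0.31 and 0.19 when counted per cell. Counted that way, the median of all genes was 1.35 and 0.88.

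Among INK4 genes, *Cdkn2a* was found almost wholly in tumors. It had 1312 UMIs (13.96 CPM) in the CD8-IFNγRKO tumor and 1461 UMIs (24.6 CPM) in the control tumor, against 0 UMIs in CD8-IFNγRKO LN and 6 in control LN, 5 of them in a single cell. Against a floor of 3 UMIs per library, 0.104 CPM in CD8-IFNγRKO LN, the CD8-IFNγRKO tumor was at least 134-fold higher. The exact interval for 0 UMIs reached 0.128 CPM, and that of the log2 ratio began at 6.77. The log2 ratio in controls was 6.94 (5.81 to 8.39). *Cdkn2b*, its neighbour, had 263 and 296 UMIs in tumors (2.80 and 4.98 CPM) and 3 and 5 UMIs in LN, a log2 ratio of 4.75 (3.19 to 7.04) and 4.90 (3.66 to 6.53).

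*Cdkn2c* reached 23.5 CPM in the CD8-IFNγRKO tumor and 33.3 in the control tumor but 3.33 and 3.47 in the LN of the same mice, with log2 ratios of 2.82 (2.53 to 3.13) and 3.26 (2.98 to 3.56). *Cdkn2d* had the closest levels relative to all UMIs, at 74.9 and 65.3 CPM in tumors and 63.9 and 66.5 in LN. The intervals of the control tumor, CD8-IFNγRKO LN and control LN overlapped for *Cdkn2d*, and the highest value was that of the CD8-IFNγRKO tumor. Per 100 cells it had 81.6 and 54.7 UMIs in tumors against 27.4 and 30.0 in LN, log2 ratios of 1.58 and 0.87 that were past 1.5-fold. By that measure the median of all genes was 1.35 and 0.88, and 74.1% and 60.9% of all genes were past 1.5-fold higher.

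**Figure D1:**
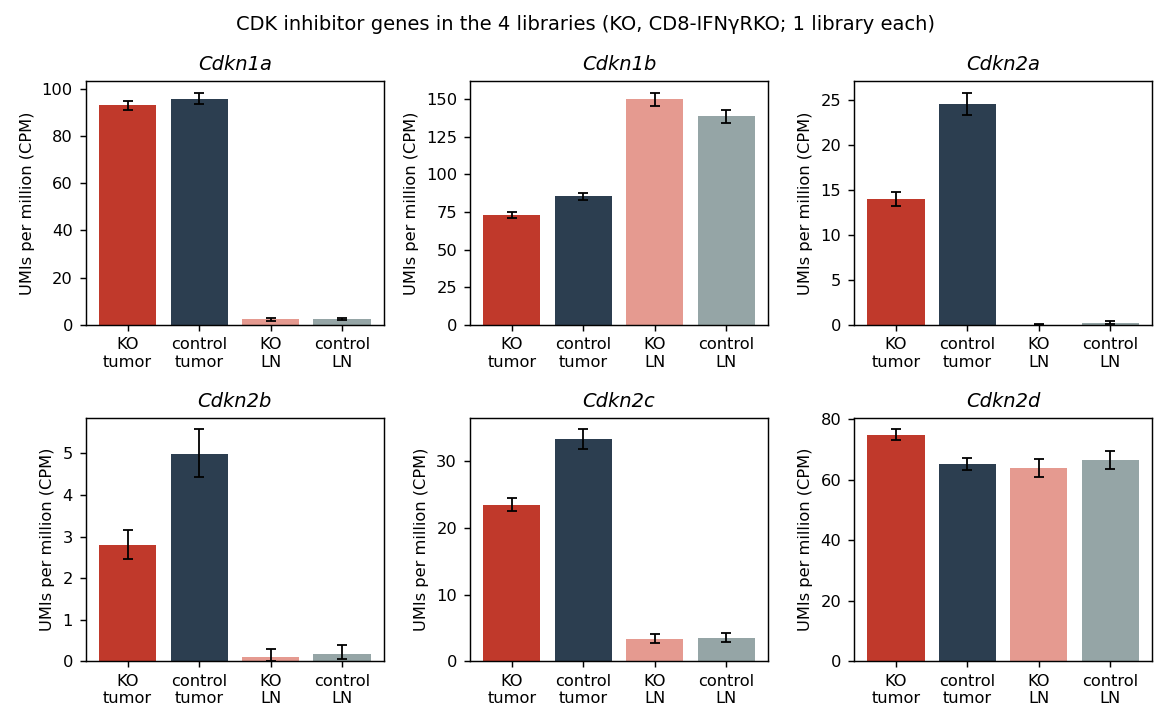
Level of each CDK inhibitor gene in CPM (vertical axis, from 0) in the 4 libraries, 1 bar per library with its exact 95% counting interval. *Cdkn1a*, *Cdkn2a*, *Cdkn2b* and *Cdkn2c* stand high in the tumor bars, *Cdkn1b* in the LN bars, and *Cdkn2d* lies between 63.9 and 74.9 CPM in all 4.

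Past 1.5-fold in tumor over LN, 4 of the 6 members were higher and 1 was lower in each genotype. Over all genes tested, 27.5% were higher and 27.3% lower in controls, and 29.1% and 28.3% in CD8-IFNγRKO mice. With TCR, heat shock, ribosomal and mitochondrial genes left out of the total these shares became 21.4% and 37.4% in controls and 22.8% and 36.5% in CD8-IFNγRKO mice. The tissues also differed in cycling, with *Mki67*, a marker of cycling cells, at 183 and 125 CPM in tumors and 7.32 and 7.65 in LN. *Cdkn1c*, the remaining CIP/KIP gene (p57), had 0.46 and 0.32 CPM in the tumors against 1.28 and 1.30 in LN.

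Shares of cells gave the same picture at equal depth. Thinned to 1600 UMIs per cell, *Cdkn1a* was seen in 11.4% and 10.1% of CD8-IFNγRKO and control tumor cells and in 0.329% and 0.359% of LN cells. The unthinned shares were 37.2%, 29.0%, 0.862% and 0.888%. No cell type in the sort should lack the gene, and the LN cells were in libraries of their own. The part of free RNA in the tumor shares was therefore not tested. *Cdkn2a* was seen in 1.87% and 3.00% of thinned tumor cells (10.6% and 12.8% unthinned), *Cdkn2c* in 3.58% and 4.48%, and *Cdkn2b* in 0.491% and 0.719%. *Cdkn1b* was in 13.8% and 14.3% of tumor and 21.5% and 20.3% of LN cells, and *Cdkn2d* in 9.41% to 10.7% in all 4 libraries.

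Among the members, *Cdkn1a* had the largest share of UMIs in cells with 5 or more of them. Cells with 5 or more of its UMIs, 494 in the CD8-IFNγRKO tumor and 300 in the control tumor, held 44.6% and 47.8% of all its UMIs, and single cells reached 43 and 53. For *Cdkn1b* such cells held 6.59% and 4.25% of the UMIs and no cell passed 10, and for *Cdkn2d* they held 23.4% and 13.5%. That share also depends on the level of a gene. The 10% of cells highest in a gene held 59.8% and 70.5% of *Cdkn1a* UMIs, but 96.3% and 86.4% of those of the rarer *Cdkn2a*. Any member was seen in 34.9% and 35.1% of thinned tumor cells.

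The members were then compared between the CD8-IFNγRKO and the control tumor library. Lower levels in the CD8-IFNγRKO tumor were seen for *Cdkn2a* and *Cdkn2b*, which code for p16 and p15, at log2 ratios of −0.82 (−0.92 to −0.71) and −0.83 (−1.08 to −0.59). *Cdkn2c* came next at −0.50 (−0.59 to −0.41), just short of 1.5-fold. The CIP/KIP genes gave −0.04 (−0.09 to 0.00) for *Cdkn1a* and −0.23 (−0.28 to −0.17) for *Cdkn1b*, and *Cdkn2d* was the 1 member of the 6 with a ratio above 0, at 0.20 (0.14 to 0.26). Past 1.5-fold, 0 of the 6 members were higher and 2 lower, against 8.62% higher and 7.16% lower of all 13337 genes tested. The median over the members was −0.36, beside 0.02 over all genes.

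The CD8-IFNγRKO tumor cells were larger libraries, and per 100 cells *Cdkn2a* had 15.2 UMIs against 20.6 in controls, a log2 ratio of −0.44, so that by UMIs per cell neither *Cdkn2a* nor *Cdkn2b* passed 1.5-fold. By that measure the median of all genes was 0.40, and *Cdkn1a* and *Cdkn1b* turned to 0.33 and 0.15. With every cell given equal weight, *Cdkn2a* gave −0.53, no longer past 1.5-fold, and *Cdkn2b* −0.96. Markers of myeloid cells moved with *Cdkn2a*: the 10 genes, each detected in both tumors, summed to 4.79 CPM in the CD8-IFNγRKO tumor and 8.86 in the control tumor, with 5 of the 9 tested past 1.5-fold lower. Without the cells holding 3 or more of these markers, *Cdkn2a* gave a log2 ratio of −0.82 and *Cdkn2b* of −0.83.

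In LN, no member differed between genotypes past 1.5-fold. Of the 4 that could be tested, 0 were higher and 0 lower, against 1.15% and 1.65% of all genes, and their log2 ratios ran from −0.08 for *Cdkn1a* to 0.11 (0.05 to 0.17) for *Cdkn1b*. *Cdkn2a* and *Cdkn2b* had too few UMIs there for a comparison.

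Cells with *Mki67* UMIs made up 45.9% of the CD8-IFNγRKO tumor and 26.2% of the control tumor (17.8% and 10.8% at equal depth), so the genotypes were also compared within each class. In cells with *Mki67*, *Cdkn2a* was at 16.3 CPM in the CD8-IFNγRKO tumor and 32.8 in controls, a log2 ratio of −1.01 (−1.15 to −0.88). In cells without it the levels were 10.1 and 18.1 CPM, a ratio of −0.84 (−1.03 to −0.65). *Cdkn2c* was at 30.4 against 50.1 CPM and at 11.9 against 20.1 CPM in the 2 classes, ratios of −0.72 and −0.75, each larger than the −0.50 seen over all cells. *Cdkn2b* gave −0.60 and −0.998.

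In each class 3 members, *Cdkn2a*, *Cdkn2b* and *Cdkn2c*, were past 1.5-fold lower and 0 were higher. Of all genes, 6.03% were lower and 4.87% higher in cells with *Mki67*, and 5.62% and 10.5% in cells without. *Mki67* was read here without thinning, and these classes did not make cycling equal. In cells without it, all 6 replication genes examined were past 1.5-fold higher in the CD8-IFNγRKO tumor. With the class with *Mki67* set to 53.3% of UMIs in both genotypes, the log2 ratios were −0.96 for *Cdkn2a*, −0.80 for *Cdkn2b*, −0.73 for *Cdkn2c*, −0.14 for *Cdkn1a*, −0.13 for *Cdkn1b* and 0.06 for *Cdkn2d*. For *Cdkn2d* the ratio was 0.20 with the cells as sampled, and the part of cycling in it was not tested.

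**Figure D2:**
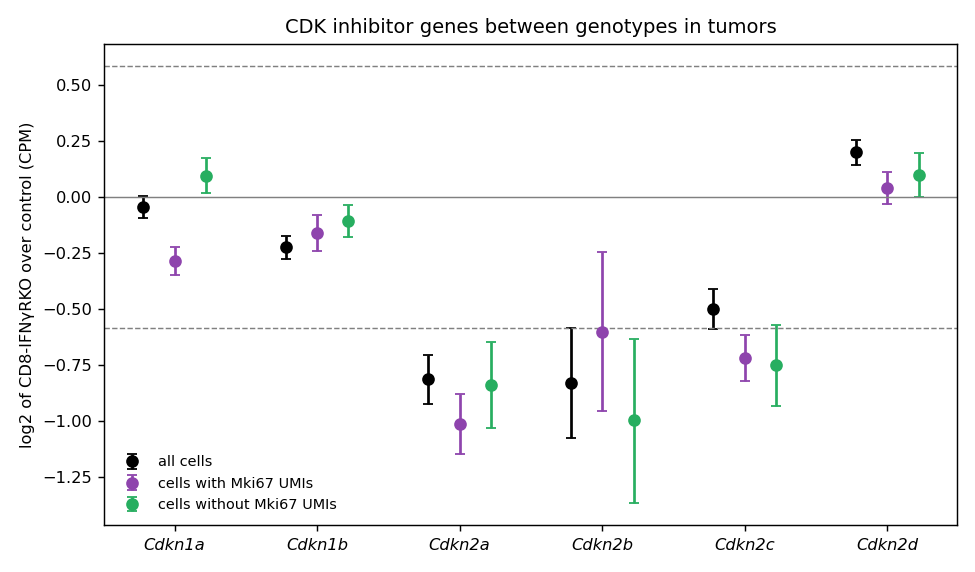
Log2 ratio of CD8-IFNγRKO over control tumor (vertical axis) for each member in all cells and in cells with and without *Mki67* UMIs. Points carry exact 95% counting intervals, and dashed lines mark 1.5-fold; *Cdkn2a*, *Cdkn2b* and *Cdkn2c* lie at −0.50 or below in all 3 groups of cells.

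Several inhibitors were higher, not lower, in cycling tumor cells. In the control tumor *Cdkn2c*, which codes for p18, was at 20.1 CPM in cells without *Mki67* and at 50.1 in cells with it, a log2 ratio of 1.32 (1.18 to 1.45), and in the CD8-IFNγRKO tumor the ratio was 1.35 (1.20 to 1.51). *Cdkn2d* showed 0.81 (0.71 to 0.90) and 0.75 (0.67 to 0.83), and *Cdkn2a* 0.86 (0.71 to 1.01) and 0.69 (0.51 to 0.87). *Cdkn1a* was past 1.5-fold in the control tumor, at 123 against 74.5 CPM (0.73, 0.65 to 0.81), and not in the CD8-IFNγRKO tumor, at 101 against 79.5 CPM (0.35, 0.28 to 0.41). *Cdkn1b* had the opposite sign in both, with −0.47 (−0.55 to −0.39) and −0.52 (−0.59 to −0.46). By UMIs per cell its ratios became 0.67 and 0.46, below the median of all genes by that measure, 1.12 and 0.93. *Cdkn2b* gave −0.37 and 0.03.

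Past 1.5-fold, 4 members were higher in the control tumor and 3 in the CD8-IFNγRKO tumor, and 0 were lower in either. The shares of all genes were 8.51% higher and 4.77% lower in the first and 5.84% and 6.36% in the second. Cells with *Mki67* UMIs had a median of 12581.5 and 13863 UMIs against 5350 and 6295 in those without. With *Mki67* read after thinning to equal depth, *Cdkn2a* gave 0.56 in the control and 0.36 in the CD8-IFNγRKO tumor and was no longer past 1.5-fold.

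Thinned cells were next sorted by the cycle genes they held: replication genes of S phase (S genes), mitotic genes, both or neither. A UMI of an S gene does not by itself mark a cell in S phase. Cells with S genes alone made up 29.2% and 27.9% of thinned CD8-IFNγRKO and control LN cells, where 0.314% and 0.234% had *Mki67* UMIs. In the control tumor *Cdkn2c* was at 21.6 CPM in cells with neither, 26.6 with S genes, 55.1 with both and 41.1 with mitotic genes alone. In the CD8-IFNγRKO tumor the same classes had 12.6, 19.1, 29.7 and 32.1 CPM. *Cdkn2d* differed between cells with S genes alone and cells with mitotic genes alone. It was at 53.2 and 110.0 CPM in these classes of the CD8-IFNγRKO tumor, and at 49.4 and 81.3 in controls. Between genotypes its log2 ratio was 0.37 (0.24 to 0.49) in cells with neither and 0.44 (0.30 to 0.57) with mitotic genes alone. With S genes alone it was 0.11 (−0.01 to 0.23), and with both −0.05 (−0.15 to 0.05). These classes did not make cycling equal between genotypes. For CD8-IFNγRKO against control, *Mki67* was at 59.2 against 30.9 CPM with neither and 127 against 85.3 with S genes alone. It was at 272 against 196 CPM with mitotic genes alone and 264 against 269 with both. The part of cycling in the genotype ratios was not tested.

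*Cdkn1b* was highest in cells with neither, at 108 and 101 CPM, and lowest in cells with both, at 63.3 and 67.4. *Cdkn1a* and *Cdkn2a* separated the genotypes most in cells with both. There *Cdkn1a* was at 94.8 CPM (91.5 to 98.2) in the CD8-IFNγRKO tumor and 125 (119 to 131) in controls, while in the other 3 classes its intervals overlapped between genotypes. *Cdkn2a* was at 15.9 against 35.9 CPM in cells with both and at 10.7 against 17.2 in cells with neither. Its genotype log2 ratios were −0.69 with neither, −0.93 with S genes alone, −1.18 with both and −0.68 with mitotic genes alone. In the same order *Cdkn2c* gave −0.78, −0.48, −0.89 and −0.36. *Cdkn2b* gave −0.89, −0.80, −0.58 and −0.34, the last with an interval of −0.93 to 0.24.

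**Figure D3:**
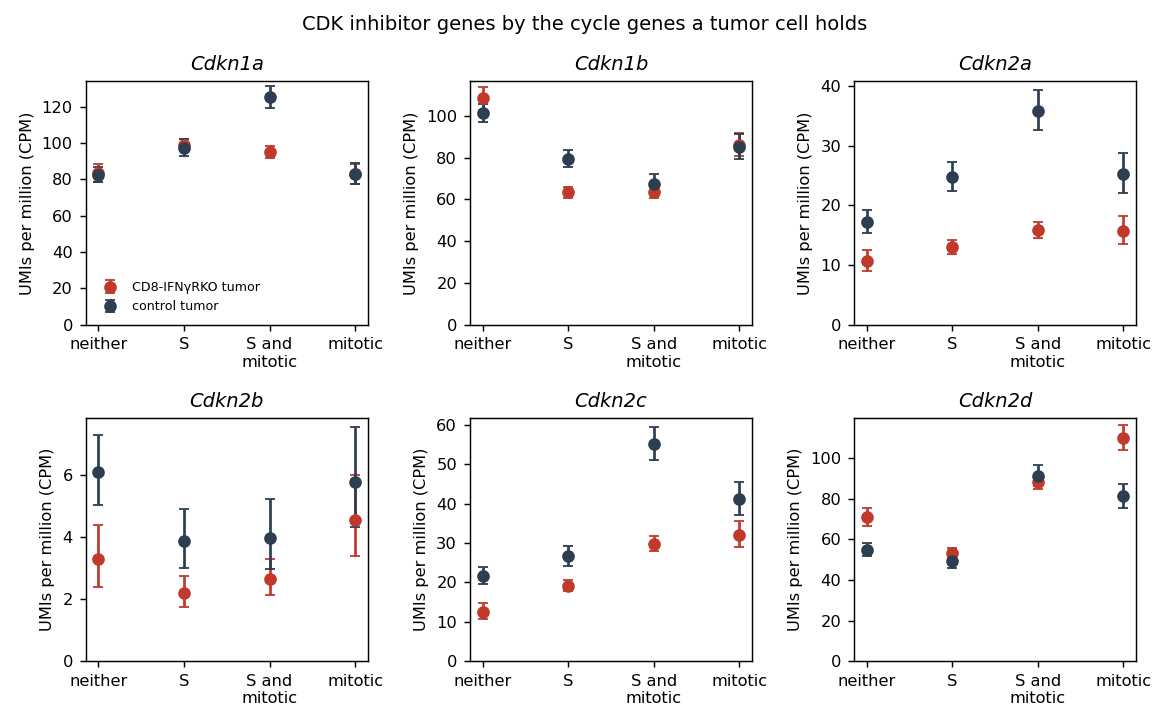
Level of each member in CPM (vertical axis, from 0) in tumor cells sorted by the cycle genes they held after thinning, by genotype, with exact 95% counting intervals. *Cdkn2c* of the control tumor peaks at 55.1 CPM in cells with S and mitotic genes, and *Cdkn1b* is highest in cells with neither.

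In the control tumor the cells with most *Cdkn1a* held more RNA of p53 target genes. With 2 or more *Cdkn1a* UMIs after thinning there were 129 control cells and 144 CD8-IFNγRKO cells, 2.02% and 1.72% of each tumor. In these control cells 16 of the 19 p53 genes tested were past 1.5-fold higher than in cells with 0, against 3.31% of all genes, and their median log2 ratio was 1.16. In the CD8-IFNγRKO tumor 5 of the 19 were higher, against 2.38% of all genes, with a median of 0.32. The difference between genotypes was not tested.

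*Phlda3*, a p53 target that restrains Akt, was at 80.1 CPM in the control cells with most *Cdkn1a* and at 6.49 in those with none, a log2 ratio of 3.62 (3.30 to 3.94). In the CD8-IFNγRKO tumor it was at 15.1 and 2.56 CPM, a ratio of 2.56 (1.94 to 3.14). *Mdm2*, the p53 ubiquitin ligase and itself a target, showed 130 against 61.8 CPM in controls (1.08) and 87.1 against 60.3 in the CD8-IFNγRKO tumor (0.53). *Trp53* RNA differed by 0.03 and −0.23. Named after their values were seen, *Ccng1* (cyclin G1) gave 1.72 and 0.84, and *Bbc3*, the pro-apoptotic PUMA, 2.36 and 0.81.

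The p53 response element found before *Cdkn1a* was also in the windows of *Ccng1* and *Rps27l*, 3 of the 17 genes that could be matched among *Cdkn1a* and the p53 list. They are shown with the C and G of each half-site in capitals, each with 1 mismatch to the consensus.
Cdkn1a, chr17:29090928-29090947, plus strand: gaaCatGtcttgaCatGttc
Ccng1, chr11:40755462-40755481, minus strand: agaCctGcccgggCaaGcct
Rps27l, chr9:66946296-66946315, plus strand: gggCttGttgagaCttGtcc

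The control cells with most *Cdkn1a* also held more of some other inhibitors, but not of *Cdkn1b*. *Cdkn2a* was at 68.0 CPM against 21.5 in cells without *Cdkn1a*, a log2 ratio of 1.66 (1.34 to 1.96). *Cdkn2b* was at 9.21 against 4.58 CPM, with a wide interval (1.01, 0.08 to 1.81). *Cdkn2c* and *Cdkn2d* gave 0.44 and 0.27, and *Cdkn1b* was at 67.3 against 86.1 CPM (−0.35, −0.66 to −0.06). In the CD8-IFNγRKO tumor *Cdkn2a* was at 21.1 against 13.7 CPM, a ratio of 0.62 (0.12 to 1.08), and *Cdkn2d* at 117 against 72.4. Of the 5 other members, 2 were past 1.5-fold higher in each genotype, against 3.31% of all genes in controls and 2.38% in the CD8-IFNγRKO tumor. These cells were not of 1 clone: the 81 control and 104 CD8-IFNγRKO cells with a paired TCR came from 23 and 24 clones, and the commonest clone made up 29.6% and 27.9% of them against 25.3% and 20.1% of cells without *Cdkn1a*. They had more UMIs, a median of 9419 and 11810 against 6741.5 and 9489.5, and like shares of mitochondrial UMIs, 0.655% and 0.771% against 0.674% and 0.766%. They were also more often cycling, with *Mki67* UMIs in 40.3% against 26.3% of control cells and 58.3% against 45.8% of CD8-IFNγRKO cells, and *Cdkn2a* and *Cdkn2d* were themselves higher in cells with *Mki67*. The part of depth and cycling in these differences was not tested.

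**Figure D4:**
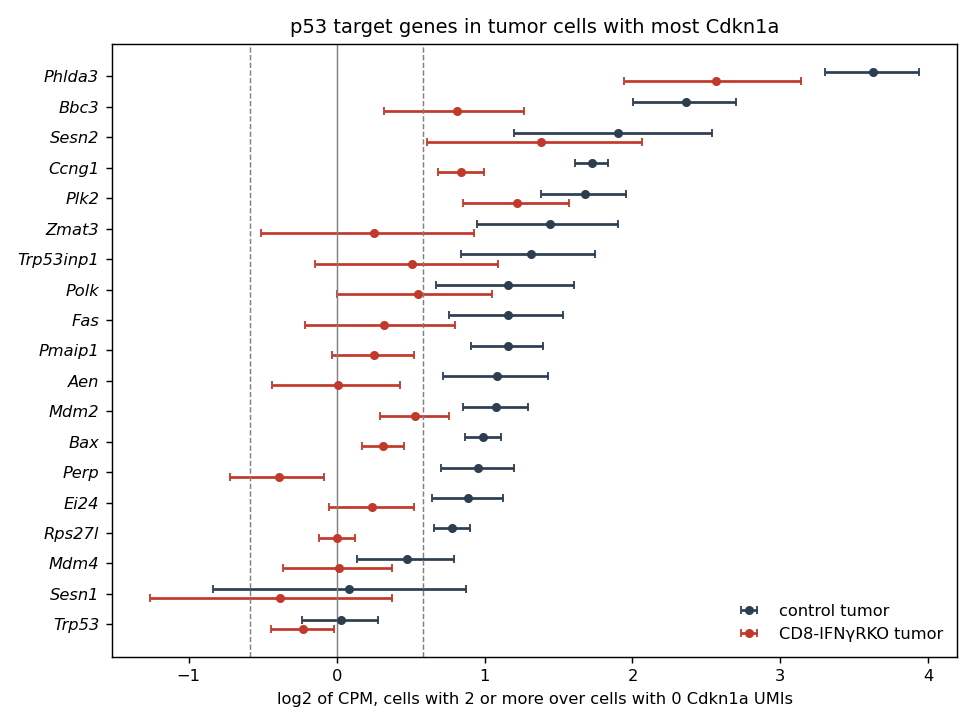
Log2 ratio of CPM in tumor cells with 2 or more over cells with 0 thinned *Cdkn1a* UMIs (horizontal axis) for the 19 p53 genes tested, by genotype, with exact 95% counting intervals and dashed lines at 1.5-fold. In the control tumor 16 genes lie beyond the right line, led by *Phlda3* at 3.62, and in the CD8-IFNγRKO tumor 5 do.

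Cells with *Cdkn2a* held more of its neighbour *Cdkn2b* in both genotypes. With a thinned *Cdkn2a* UMI, 192 control and 156 CD8-IFNγRKO cells had *Cdkn2b* at 13.3 and 11.4 CPM against 4.56 and 2.64 in cells without, log2 ratios of 1.54 (0.96 to 2.08) and 2.11 (1.39 to 2.75). *Cdkn1a* was at 192 against 92.2 CPM in control cells with *Cdkn2a* (1.06, 0.92 to 1.20) and at 109 against 92.9 in the CD8-IFNγRKO tumor (0.23, 0.02 to 0.43). Past 1.5-fold, 2 of the 5 other members were higher in controls and 1 in the CD8-IFNγRKO tumor, against 2.48% and 1.31% of all genes. Of the 19 p53 genes, 2 were higher and 1 lower in controls and 1 was higher in the CD8-IFNγRKO tumor. Cells with and without *Cdkn2a* were not matched for depth or cycling, and the part of these in the differences was not tested.

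Pairs of members were then counted in the same thinned cell. *Cdkn1a* and *Cdkn2a* were found together in 44 control cells, 2.27 times (1.65 to 3.04) the product of their shares, and in 15 CD8-IFNγRKO cells, 0.85 times (0.47 to 1.39). In control cells the ratio was 2.77 (1.78 to 4.12) without *Mki67* and 1.55 (0.95 to 2.38) with it. *Cdkn2c* and *Cdkn2d* were together in 68 CD8-IFNγRKO cells, 2.13 times (1.65 to 2.69) the product, and in 33 control cells, 1.22 times (0.84 to 1.71). For *Cdkn2c* and *Cdkn2d* the CD8-IFNγRKO ratio was 2.04 (1.53 to 2.66) with *Mki67* and 1.78 (0.999 to 2.94) without it. The control ratios of this pair were 1.37 (0.89 to 2.01) and 0.67 (0.29 to 1.33). The members were counted in thinned cells, which all held the same number of UMIs. *Mki67* was read without thinning, so the cells with and without it differed in depth, and the part of depth was not tested. Cycling was looked at only by this split on *Mki67*, and its remaining part was not tested. Both pairs were picked after their values were seen.

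Levels varied widely from clone to clone. In the 21 CD8-IFNγRKO and 10 control clones of 50 or more cells, *Cdkn2a* ran from 0.77 to 68.9 CPM with a median of 9.65, and from 4.83 to 67.2 with a median of 16.0. *Cdkn1a* ran from 57.9 to 143 and from 31.8 to 127 CPM, and *Cdkn2c* from 13.8 to 67.0 and from 17.6 to 44.2. The ranges overlapped between genotypes for all 6 members. Without the 3 largest clones of each tumor, the genotype log2 ratios were −0.82 for *Cdkn2a*, −1.14 for *Cdkn2b* and −0.44 for *Cdkn2c*.

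A pair of CD8-IFNγRKO clones stood out in several members at once, picked after their values were seen. The eighth and seventeenth by size, of 149 and 71 cells, had *Mki67* UMIs in 14.8% and 16.9% of their cells, the lowest shares of the 21. They had *Cdkn1b* at 179 and 172 CPM, *Cdkn2c* at 67.0 and 59.5 and *Cdkn2a* at 31.9 and 68.9. The *Mki67* shares of clones were not thinned, and the part of depth in them was not tested. Levels of single clones are given without intervals. In the control tumor the clone with most *Cdkn2a* (67.2 CPM, 153 cells) was also the one with most *Cdkn2b*, 13.8 CPM.

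**Figure D5:**
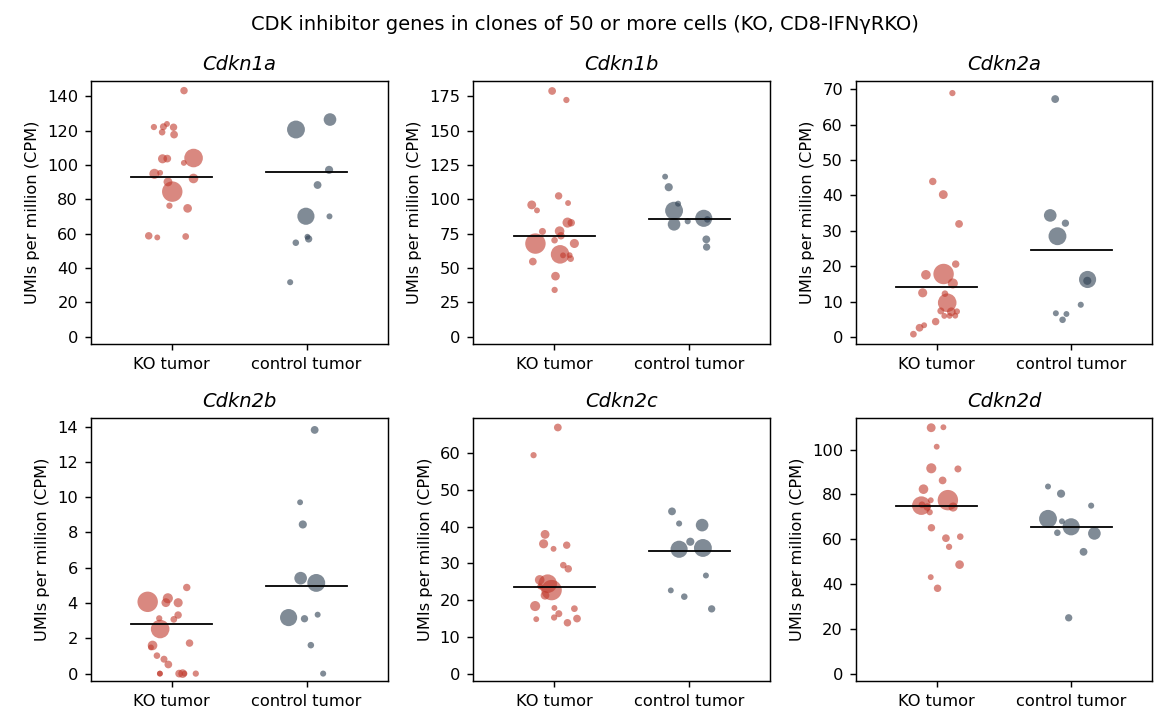
Level of each member in CPM (vertical axis, from 0) in tumor clones of 50 or more cells, 21 from the CD8-IFNγRKO and 10 from the control tumor. Each point is a clone with area growing with its cells, and the black line is the whole library; clones of both genotypes overlap for all 6 genes.

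Cells that were the only one of their clone had a different set of inhibitors. In the 364 CD8-IFNγRKO and 182 control cells of this kind, *Cdkn1a* was at 25.8 and 28.6 CPM, against 95.2 and 96.0 in clones of 10 or more cells. *Cdkn2a* was at 1.14 and 6.59 CPM against 14.3 and 25.1, and *Cdkn1b* at 136 and 115 against 69.0 and 88.1. The *Cdkn2a* levels of single cells rested on 2 and 6 UMIs, with intervals of 0.14 to 4.14 and 2.42 to 14.3 CPM. No *Cdkn2b* UMI was found in them, with intervals reaching 2.11 and 4.05 CPM. The 203 control cells in clones of 2 to 9 cells also had 0. *Mki67* UMIs were seen in 8.24% and 7.69% of the single cells against 49.3% and 23.1%. These shares were not thinned, and the single cells had a median of 3997.5 and 4041 UMIs against 10502 and 6323. The part of depth in these shares was not tested. Among cells without *Mki67* the *Cdkn1a* levels were 18.6 and 17.4 CPM in single cells and 82.5 and 75.2 in the large clones.

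Tumor cells with a thinned UMI of *Tcf7*, the TCF-1 gene of stem-like and naive T cells, resembled LN cells in *Cdkn1b*, at 153 CPM in 453 CD8-IFNγRKO cells and 152 in 200 control cells. *Cdkn1a* was at 34.5 and 97.6 CPM in them, and 2 of the 5 members tested, *Cdkn1a* and *Cdkn2a*, were past 1.5-fold lower in the CD8-IFNγRKO cells, against 2.74% of all genes. A single control cell held 51 of the 103 *Cdkn1a* UMIs. Without it the control level was 49.7 CPM and the log2 ratio went from −1.50 (−1.94 to −1.06) to −0.52 (−1.05 to 0.01). *Cdkn2a* rested on 9 and 12 UMIs.

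The other genes of the pathway were read from lists. Over all cells, 8.62% of all genes were past 1.5-fold higher and 7.16% lower in the CD8-IFNγRKO tumor. Of 12 CDKs and cyclins, 8 were past 1.5-fold higher and 1 lower, with a median log2 ratio of 0.63. *Ccne1*, the G1 to S cyclin E1, was the highest at 0.95 and *Ccnd2* the lowest of those with 100 or more UMIs at −0.19. Of the INK4 partners, *Cdk4* was at 0.59 and *Cdk6* at 0.52, beside *Ccnd3* at 0.10. All 6 replication genes were higher in ratio, 5 of them past 1.5-fold, from *Mcm6* at 0.58 to *Mcm2* at 1.07, as were 3 of 6 mitotic genes, from *Cenpa* at 0.21 to *Plk1* at 0.87. Of 13 RB and E2F genes 3 were higher and 0 lower, from *Rbl2* at −0.32 to *E2f1* at 0.83. These calls were mostly absent within cells with *Mki67* UMIs, where 0 CDKs and cyclins were higher and 1 lower (median 0.22). There 1 replication gene, 0 mitotic and 0 RB and E2F genes were higher, beside 4.87% higher and 6.03% lower of all genes. Within cells without *Mki67*, 8 CDKs and cyclins (median 1.11), 6 replication, 5 mitotic and 5 RB and E2F genes were higher. Of all genes, 10.5% were higher and 5.62% lower in that class.

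Over all cells, the p53 and quiescence genes that passed 1.5-fold were all lower in the CD8-IFNγRKO tumor. Of 19 p53 genes 0 were higher and 3 lower, against 7.16% lower of all genes, with a median of −0.21, from *Phlda3* at −1.52 (−1.72 to −1.33) to *Trp53* itself at 0.35. Of 13 quiescence and FOXO genes 0 were higher and 4 lower, against the same 7.16% of all genes, with a median of −0.30. They ran from the antiproliferative *Btg1* at −0.92 to *Klf2* at 0.51, with *Foxo1*, an activator of *Cdkn1b*, at −0.26. Of 12 genes that degrade or move the inhibitors 2 were higher, against 8.62% of all genes. *Dtl*, part of a ligase that targets p21 in S phase, was at 0.70 and *Rnf123* at −0.11. *Skp2*, of the ligase that degrades p27, gave 0.39. None of the 10 Polycomb genes, which repress the *Cdkn2a* locus, passed 1.5-fold, and they ran from *Cbx8* at −0.32 to *Ezh2* at 0.51, with *Bmi1* at 0.03. Within cells with *Mki67*, 4 p53 and 3 quiescence genes were lower and 0 higher, against 6.03% lower of all genes. Within cells without it, 1 p53 gene was lower and 0 higher, and 3 quiescence genes were lower and 1 higher. Of all genes, 5.62% were lower and 10.5% higher in that class.

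Across 16 groups of cells, the 4 cycle classes in each of the 4 libraries, the genes whose log2 levels ran most like each member were looked up among 4075 genes, for the 5 members other than *Cdkn2b*, whose level was too low. The groups of a library share its depth and tissue, so the coefficients are a description. *Cdkn1a* was followed by *Plek*, *Ccl3* and *Mt3* (Pearson r of 0.995 each), and *Cdkn1b* by *Saraf*, *Ptprc* and *Heca* (0.984, 0.978 and 0.976). *Cdkn2a* ran with *Uap1*, *Tmem258* and *Sytl2* (0.976, 0.970 and 0.968) and *Cdkn2c* with *Calm2*, *Srp9* and *Cmc2* (0.985, 0.964 and 0.954). *Cdkn2d* ran with *Aurka*, *Odf2* and *Cdc20* (0.861, 0.860 and 0.852), of which *Aurka* and *Cdc20* act in mitosis.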

How the data were processed

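The authors deposited raw UMI counts per gene and cell barcode, made with Cell Ranger 6.0.0 on mm10 from 5′ 10x libraries, and tables of TCR contigs of the 2 tumor libraries, from which paired chains gave clones. Each UMI marks a transcript end, so levels were not divided by length. Cells with 200 to 6000 genes, at most 3% mitochondrial UMIs, at most 20% of UMIs in 1 gene, a UMI each of *Cd2*, *Cd8a* and *Cd8b1* and fewer than 5 of 10 myeloid markers were kept (51.2% to 70.7% of barcodes). No doublet caller was run. UMIs were summed over cells, divided by the total and given as CPM with exact Poisson intervals, conditional binomial intervals for ratios and Clopper-Pearson intervals for shares. With 1 library per group there is no test and no p-value. Pearson coefficients used log2 of CPM plus 10, over genes reaching 50 CPM in a group. For shares and cell classes, cells were thinned to 1600 UMIs (seed 1), leaving out 278, 701, 41 and 237 cells of the CD8-IFNγRKO tumor, control tumor, CD8-IFNγRKO LN and control LN. On simulated counts for CD8-IFNγRKO over control tumors, 98% of 50 genes changed 2-fold upward and 0.693% of 13122 unchanged genes passed 1.5-fold, over 13322 genes. The simulated counts held counting error only, so this share is not a rate of false calls between mice or libraries.

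The members, the gene lists and the rule for named genes were chosen with earlier results of these data known. The rule takes all members, for each list the genes of highest and lowest tumor genotype ratio with 100 or more UMIs, genes needed to read a member and the 3 genes most like each member. Classes by *Cdkn1a* and *Cdkn2a* UMIs and the p53 element were chosen after seeing the data. Sequences and coordinates are from RefSeq (GRCm38.p6), and all 6 members were matched. Protein sequences were not analysed here. The result of 1 marker list is not reported here. Tools were Python 3.11.15, numpy 2.4.6, scipy 1.17.1 and pandas 2.3.3.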

Additional observations from a re-analysis of the deposited data

Results flagged for a closer look

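For *Cdkn1b* the genotype ratio had opposite signs in the 2 tissues, with a log2 of −0.23 in tumors and 0.11 in LN for CD8-IFNγRKO over control, 1 library each, and the difference was not tested. For *Cdkn1a* the genotype ratio had opposite signs by cycling class within tumors, with −0.29 in cells with *Mki67* UMIs and 0.095 in cells without, and this difference was not tested.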

How the results depend on the processing

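Of 85 recomputed counts of members, 82 stayed within 1.5 times the value given. Members past 1.5-fold were counted with both directions together, so a change of direction or of member did not show. By UMIs per cell in tumor over LN, *Cdkn1b* was no longer past 1.5-fold lower and *Cdkn2d* was past it higher in each genotype. Of 474 recomputed log2 ratios of single members, 382 stayed within the counting interval of the value given, 90 moved further and 2 that had passed 1.5-fold changed sign. By UMIs per cell, 0 members passed 1.5-fold between tumor genotypes in place of 2, and 5 in place of 3 between CD8-IFNγRKO tumor cells with and without *Mki67*. Of all genes, 28.4% were then higher and 3.09% lower between tumor genotypes. For CD8-IFNγRKO tumor cells with over without *Mki67* 81.2% of all genes were higher and 0.599% lower. By the mean over cells of each cell's CPM, 1 member passed between tumor genotypes, against 11.2% of all genes higher and 6.90% lower. *Cdkn1b* in tumor over LN turned from −0.70 to 0.19 in controls and from −1.04 to 0.31 in CD8-IFNγRKO mice by UMIs per cell, the measure under which the median of all genes was 0.88 and 1.35. Leaving out TCR, heat shock, ribosomal and mitochondrial genes from the library size moved the median of all genes in tumor over LN to −0.30 in controls and −0.26 in CD8-IFNγRKO mice, and the genes higher and lower went from 27.5% and 27.3% to 21.4% and 37.4% in controls. The alternatives that left out cells with 3 or more myeloid markers or the 3 largest clones were chosen after seeing the data. No paired analysis was possible because each group is 1 library, and no replicate could be left out. Depth limits *Cdkn2a* and *Cdkn2b* in LN and the small classes, where single cells can carry a value.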

Other observations

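The long non-coding RNA *Lockd*, the next gene beyond *Cdkn1b* on the same strand with 3567 bases between them, was at 45.4 CPM in the CD8-IFNγRKO tumor and 39.9 in the control tumor, where *Cdkn1b* was at 73.0 and 85.4. The next annotated gene before *Cdkn1a*, *Trp53cor1*, a non-coding p53 target, was at 0.56 and 0.42 CPM. *Ccnd1*, cyclin D1, was the 1 gene of the CDK and cyclin list past 1.5-fold lower in the CD8-IFNγRKO tumor, at a log2 ratio of −0.83, named after its value was seen.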
